A study of Trichoderma reesei with 12 samples.

Results

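The response of Δrgs4 to light was followed across all genes of Trichoderma reesei, by comparing 3 libraries from constant light (LL) with 3 from constant darkness (DD). These 6 libraries were chosen by strain and light condition as the labels give them, out of 12 libraries in the series. The other 6 are those of the parental wild-type strain QM6a, 3 in LL and 3 in DD, which were used to set the response of Δrgs4 beside that of its parent. In Δrgs4 the gene rgs4 (TrG0496W) was replaced in QM6a by a hygromycin resistance cassette. All cultures were mycelia grown in minimal medium with cellulose as carbon source and harvested after 96 h. The study's methods describe triplicate shake flasks per strain and condition and a single deletion strain, in which a copy number test pointed to an extra copy of the cassette. A light difference of Δrgs4 is therefore that of 1 transformant. The study reports that in progeny of a cross the growth defect on glucose went with the deletion. That is a check of growth and not of transcripts. The same light contrast in QM6a carries neither the deletion nor the marker.

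Regulators of G-protein signaling (RGS) accelerate the hydrolysis of GTP by G-alpha subunits and so shorten the signal of a G-protein coupled receptor. RGS4 belongs to a group of these proteins that also carry a PX domain. T. reesei is a filamentous ascomycete that secretes large amounts of cellulases and other plant cell wall degrading enzymes when it grows on cellulose. In this fungus photoreceptors and G-protein signaling both act on enzyme production and secondary metabolism, among them the yellow sorbicillinoids. Siderophores are small secreted chelators of ferric iron, which are taken up again by specific transporters.

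The deposited values were turned back into reads. A normalized count is the read number over that library's size factor. In the 6 libraries of Δrgs4 between 12.09 and 15.84 M reads lay on genes, and all 10879 genes came out as whole reads within 0.01. For the deleted gene the DD libraries held 5, 0 and 0 reads, and the LL libraries 4, 0 and 0. Between 9772 and 9854 genes had a read in the DD libraries and between 9449 and 9513 in the LL libraries, with no overlap (exact two-sided permutation test, p = 0.1, the smallest that 3 against 3 libraries allow). The RNA came from whole cultures, so that fewer cells of a type and less RNA per cell cannot be told apart. No gene that marks hyphae or conidia is annotated in the sources used here, and the labelled mycelium was not checked by markers.

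DD replicate 3 lay apart from the other DD libraries of Δrgs4. Over the 8895 genes tested its log2 levels correlated with those of DD replicates 1 and 2 at r = 0.965 and 0.972, while replicates 1 and 2 correlated at 0.993 with each other (a description across genes, which are not independent). In DD replicate 3, 756 genes differed more than 2-fold from the mean of the other DD libraries on the log2 scale, against 407 for replicate 1 and 205 for replicate 2. On an axis that runs from 0 at the mean of the wild-type DD libraries to 1 at that of the wild-type LL libraries, DD replicates 1, 2 and 3 stood at -0.005, 0.003 and 0.088, and LL replicates 1, 2 and 3 at 0.99, 0.92 and 0.991. No DD library came near a LL library on this axis. Of the 1919 genes lower in LL in the wild-type, this library was the lowest of the 3 DD libraries of Δrgs4 for 47.5%, against 39.7% of all genes tested. Of the 1361 genes higher in LL in the wild-type it was the highest of the 3 for 37.0%, against 44.0% of all genes tested, so that it did not stand nearer to the light level in both directions. Values without DD replicate 3 are given where they bear on a result.

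Light changed transcript levels of a large part of the genome in Δrgs4. A gene was called when its log2 fold change between LL and DD (the light effect) was over 0.58 in size and its adjusted p was under 0.05, in a limma fit on log2(normalized counts + 2) with Benjamini-Hochberg adjustment over all genes tested. Tested were the 8895 genes that reached 10 reads in 3 or more libraries. Of these 1955 (22.0%) were lower in LL and 1266 (14.2%) were higher. Decreases were larger than increases, with a median light effect of -1.55 among the lower genes and 0.99 among the higher genes. A change of at least 8-fold on the fitted scale was found for 404 lower and 96 higher genes, and a change of at least 64-fold for 75 and 15. In 70 of the lower genes no read was left in any LL library, and 9 of the higher genes had no read in any DD library. The 6 libraries did not overlap for 1867 of the lower and 1244 of the higher genes, and for 63.0% of all genes tested. The median light effect of all genes tested was -0.01. Without DD replicate 3, 2011 genes were called lower and 1272 higher, and 1824 and 1162 of the original calls were kept.

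**Figure D1:**
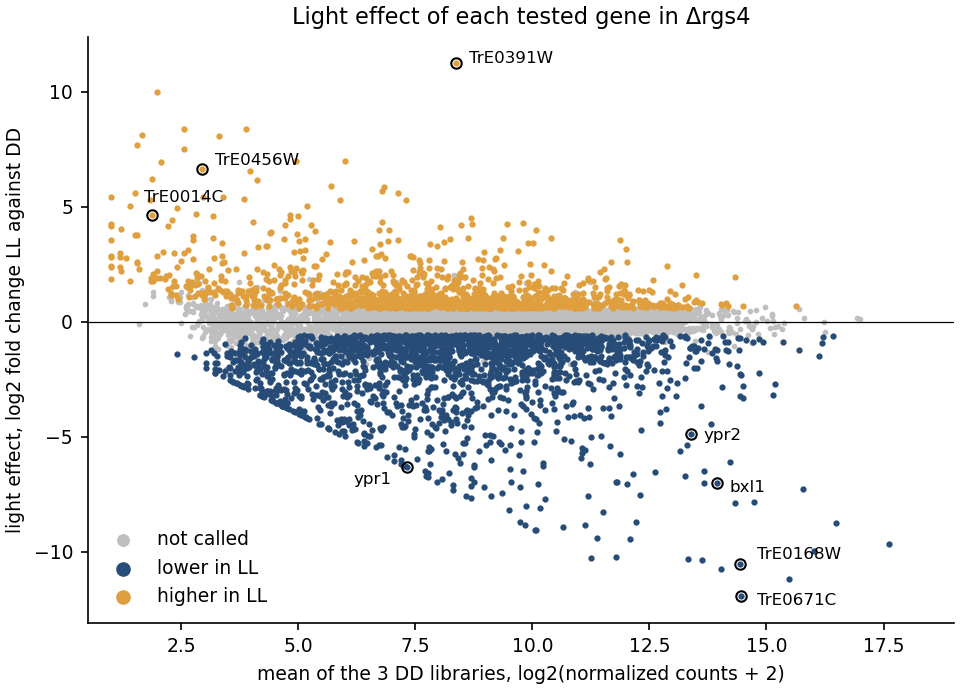
Light effect of each of the 8895 tested genes in Δrgs4 (vertical axis, log2 fold change LL against DD) against its mean level in the 3 DD libraries (horizontal axis, log2(normalized counts + 2)). The 1955 genes lower in LL (blue) reach down to -11.94 and the 1266 higher genes (orange) up to 11.23; the straight lower edge is made of genes with almost no reads in LL.

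The share of all reads that the called genes took is given as a description. These genes were called on the same libraries, so that the direction of the change in share was fixed in advance. Genes lower in LL took 26.9%, 26.8% and 24.3% of the reads in DD replicates 1, 2 and 3, and 7.33%, 8.47% and 7.99% in the LL libraries. Genes higher in LL took 8.97%, 8.88% and 9.34% in DD and 28.4%, 24.1% and 25.8% in LL. A single gene of no annotation in the sources used here, TrE0391W, made up 7.25%, 4.45% and 5.33% of the reads in the LL libraries. In DD it took 0.0016%, 0.0015% and 0.00524%, with the highest value in DD replicate 3. Its mean was 386 ± 281 normalized counts in DD and 810799 ± 207427 in LL (SD, n = 3 each), a light effect of 11.23 (SE 0.46, adjusted p = 6.4e-09, limma), and its light effect in the wild-type was 11.18. The 10 genes with most reads apart from TrE0391W took 7.2% to 7.74% of the reads in DD and 5.77% to 6.04% in LL.

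The other genes with no annotation that stood out by the largest changes were TrD1022C among the increases and TrE0671C and TrG1206C among the decreases. TrD1022C had 0.96, 0 and 8.3 normalized counts in DD and 5184, 3353 and 3711 in LL. TrE0671C had 28302, 27159 and 14592 in DD and 7.25, 8 and 0 in LL, and its number lies 6 after that of ypr1. TrG1206C had 63730.3, 62245 and 23639 in DD and 123, 28.6 and 0 in LL. In these 2 lowered genes DD replicate 3 held the lowest DD value, and in TrD1022C the highest, but no DD library came near a LL library. The light effects were 9.99 (SE 0.48), -11.94 (SE 0.53) and -11.17 (SE 1.17). Genes with many reads in one light condition and few in the other can have their spread underestimated by the fit. It moves each gene's own spread toward a trend at the gene's mean over all libraries.

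Genes with a known or predicted product were taken from the annotation of the study's list of genes that differ between Δrgs4 and the wild-type, and from its text. That list was chosen by the authors on these same libraries, so that counts over it are not independent evidence for a direction. Of the 94 genes, 58 were lower in LL in Δrgs4, 12 were higher and 24 were not called, where 22.0% and 14.2% of all genes tested were lower and higher. The same shares and the median of -0.01 are those to set beside the counts of each gene group, all of which have few genes. The 10 largest decreases, between -10.52 and -4.16, were called in every alternative analysis, and so were 7 of the 10 largest increases, which ranged from 1.46 to 6.64.

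Among the enzyme genes on the list the largest decreases were those of a chloroperoxidase and a xylosidase. Chloroperoxidases use hydrogen peroxide to oxidize or halogenate organic compounds, and the gene TrE0168W is annotated as one. Its DD libraries held 31367, 26323 and 13231 normalized counts, and its LL libraries 19, 6.85 and 16.5. The ratio of the means was 1670 and the light effect -10.52 (SE 0.37, adjusted p = 2.02e-09, limma). DD replicate 3 was the lowest of the DD libraries, and without it the light effect was -10.89. The second chloroperoxidase on the list, TrE0148W, fell from 1433 ± 395 to 269 ± 47.7 (SD, n = 3 each), a light effect of -2.38 (SE 0.17).

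The gene bxl1 (TrC1552C) encodes a beta-xylosidase of glycoside hydrolase family GH3, which releases xylose from short xylan fragments. It had 18491, 19389 and 11026 normalized counts in DD and 163, 119.9 and 84.5 in LL. Its light effect was -7.04 (SE 0.27, adjusted p = 3.48e-09, limma), and again DD replicate 3 was the lowest dark library. Further hydrolases and transferases were lowered less, among them a family GH43 xylosidase or arabinofuranosidase (TrB0877C, -2.06) and an esterase or lipase of family CE10 (TrC1211C, -3.33). A mannosyltransferase of family GT32 (TrE0204W) had a light effect of -1.55 and an alpha-mannosidase of family GH47 (TrG0512W) one of -0.69.

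In contrast, 3 carbohydrate-active genes rose in light. The beta-glucosidase gene bgl3i (TrA0299W), whose class of enzymes splits cellobiose into glucose, had 421, 499 and 541 normalized counts in DD and 2820.4, 2203 and 2386 in LL. The ratio of its means was 5.07, and the light effect of 2.34 (SE 0.12, adjusted p = 3.14e-08, limma) compares with 1.41 in the wild-type. The endo-N-acetyl-glucosaminidase gene TrF0168W rose from 154 ± 16.2 to 271 ± 74.6 and TrD1405C of family GH109 from 54.9 ± 2.84 to 95.1 ± 9.25 (SD, n = 3 each). TrB0225W, a glucanase gene of family GH16, was not called, with 51.6 ± 7.35 in DD and 41.8 ± 13.2 in LL.

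Transporters of amino acids and peptides went both ways. TrB0212C, a predicted transporter of neutral amino acids, had 4166, 4059 and 5569.5 normalized counts in DD and 111, 32 and 23 in LL, a light effect of -6.64 (SE 0.48, adjusted p = 5.24e-07, limma). The oligopeptide transporter gene TrA0967C fell from 1801, 1829 and 2778 to 38, 34.3 and 25.7, a light effect of -5.93 (SE 0.29). For both genes DD replicate 3 was the highest library, the opposite of bxl1 and the chloroperoxidase. The amino acid permease gene TrB1799C, annotated as Dip5, rose from 391, 404 and 626 to 1323, 1347 and 1155, and was the only one of the 6 genes of this group to rise. Of the other 3, TrA0392C was lower at -0.64, and the GABA permease genes TrA1398C (-0.27) and TrC0132C (-0.45) were not called.

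Of 10 further transporter genes 8 were lower in LL and 1 was higher, against 22.0% and 14.2% of all genes tested, with a median light effect of -1.11. TrG0838W, an ABC transporter of the MRP type, had 6282, 6723 and 7379 normalized counts in DD and 422, 292 and 253 in LL, a light effect of -4.42 (SE 0.18, adjusted p = 4.72e-09, limma). The plasma membrane proton ATPase gene TrA2081W, whose product builds the proton gradient that drives uptake, fell from 7516, 6608 and 4171 to 3242, 2895 and 2105. Its light effect was -1.13 (SE 0.26). The riser was TrC1338C, a permease of the major facilitator superfamily, with 249, 206 and 133 normalized counts in DD and 1516, 1126 and 1121 in LL (light effect 2.70, SE 0.21). The aquaglyceroporin gene TrF1134W overlapped between the conditions, with a light effect of -0.03 (SE 0.37).

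**Figure D2:**
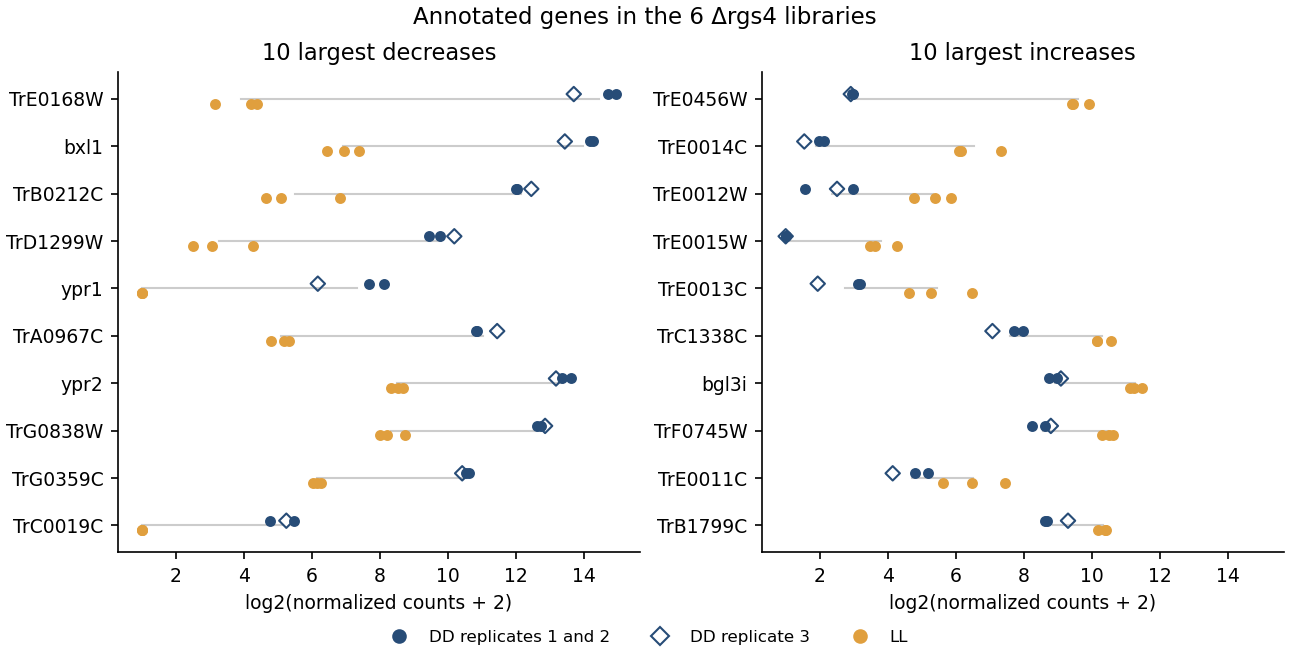
The 10 annotated genes with the largest decrease (left) and the largest increase (right) in light, with 1 point per Δrgs4 library on a log2(normalized counts + 2) scale and grey lines between the group means. Among the decreases DD replicate 3 (open diamonds) was lowest of the DD libraries for TrE0168W, bxl1, ypr1, ypr2 and TrG0359C. It was highest for TrB0212C, TrD1299W, TrA0967C and TrG0838W. By the rule that chose these genes DD and LL do not overlap.

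The sorbicillin regulators were lowered together. The transcription factor genes ypr1 (TrE0665C) and ypr2 (TrE0663W) lie in the gene cluster for sorbicillinoid synthesis. ypr2 had 12489, 10464 and 9211 normalized counts in DD and 406, 365 and 319.6 in LL, a light effect of -4.87 (SE 0.11, adjusted p = 1.8e-10, limma). ypr1 had 277, 204 and 70.1 in DD and no read in any LL library. With 3 reads over the LL group as the limit that a count of 0 allows, ypr1 was at least 188-fold lower in LL. Its DD level was lowest in DD replicate 3, which deviated by -1.73 from the mean of the other DD libraries on the log2(normalized counts + 2) scale. Both genes lie in a run of 7 consecutively numbered genes that were all lower in LL, with a median light effect of -7.02, and all 7 were also lower in the wild-type.

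Another 4 of the 8 genes in the group of transcription and chromatin were lower in LL, among them the Zn2Cys6 regulator genes TrF0357C (-2.64) and TrB1006C (-1.38) and the SANT or myb domain regulator gene TrB0388C (-2.21). A second gene annotated as a myb regulator, TrE0456W, gave the largest increase of all 94 genes. It had 5.77, 5.87 and 5.53 normalized counts in DD and 963, 685 and 693 in LL, a ratio of the means of 136 and a light effect of 6.64 (SE 0.18, adjusted p = 3.84e-10, limma). The DD libraries held only 6, 5 and 6 reads. At so few reads their near equality says little about the spread between cultures, and the ratio is uncertain.

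Among small secreted proteins 6 of 8 genes were lower and 1 was higher in LL, against 22.0% and 14.2% of all genes tested. TrD1299W, annotated as a small secreted cysteine-rich protein, had 695, 859 and 1159 normalized counts in DD and 3.62, 17.1 and 6.43 in LL (light effect -6.52, SE 0.40). TrG0359C, an orphan secreted protein with a CFEM domain, fell from 1569.7, 1459 and 1362 to 63.4, 74.2 and 68.9 (light effect -4.37, SE 0.11). TrF0745W, an orphan secreted protein, rose from 300.3, 389 and 441 to 1248, 1444 and 1558 (light effect 1.92, SE 0.14). The tyrosinase gene TrG0897W of the oxidase group, whose class of enzymes oxidizes phenols on the way to melanin, had 65418, 69925 and 79396 normalized counts in DD and 22674, 29074 and 25575 in LL. Its light effect was -1.48 (SE 0.11).

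All 5 oxidase and haloperoxidase genes and 8 of 9 dehydrogenase and reductase genes were lower in LL, against 22.0% of all genes tested, with median light effects of -1.88 and -1.49. The short chain dehydrogenase gene TrB1260C fell from 396, 408 and 363 to 23.6, 34.3 and 19.3 (light effect -3.85, SE 0.22). The mannitol-1-phosphate dehydrogenase gene TrG0013W, which acts in the synthesis of the storage polyol mannitol, fell from 736, 683 and 653 to 197, 204 and 219.5 (light effect -1.73, SE 0.09). Of the glutathione group TrB1934C (-2.20), TrF1200C (-1.21) and TrE0246W (-0.73), all for glutathione S-transferases, were lower, and the glutaredoxin gene TrB1911C had a light effect of -0.31 and was not called. Both genes of small GTPases, TrF0974C (-1.03) and TrE0853C (-0.62), were lower, as were 2 of 4 peptidase genes, TrF0056W (-2.22) and TrE0929C (-1.58).

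**Figure D3:**
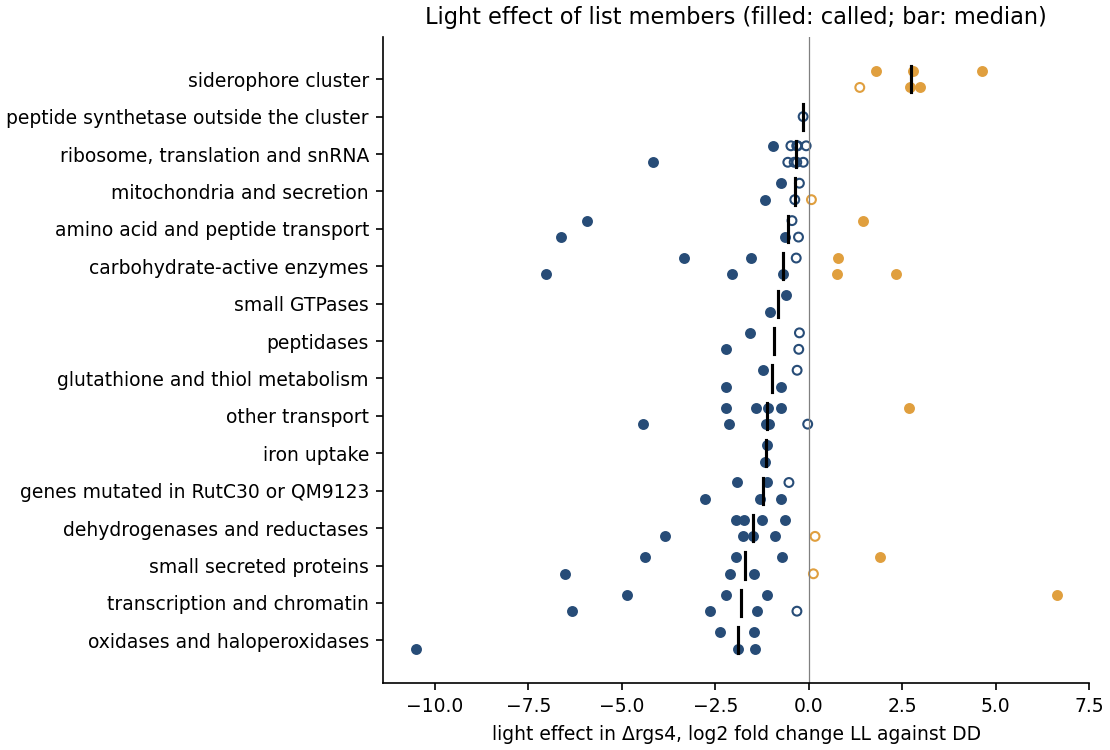
Light effect in Δrgs4 (horizontal axis, log2 fold change LL against DD) of the members of 16 gene groups, with 1 point per gene, filled where called, and a black bar at the group's median. The siderophore cluster, with a median of 2.75, is the only group shown whose median lies above 0; the oxidases and haloperoxidases have the lowest median, -1.88.

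The siderophore cluster was the one group that rose. Its 6 genes encode the synthesis and transport of a siderophore. TrE0011C encodes the peptide synthetase, TrE0014C the acetyltransferase SidF, TrE0015W a homolog of the Aspergillus fumigatus hydratase SidH, and TrE0012W a siderophore esterase. TrE0013C and TrE0016W encode an ABC transporter and a siderophore transporter. In LL 5 of the 6 genes were higher, with a median light effect of 2.75, or 2.85 with TrE0015W at its lower bound.

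These were genes of few reads, and the cluster as a whole had 44, 45 and 32 reads in the DD libraries and 214, 214 and 587 in LL. TrE0014C had 1.92, 2.35 and 0.92 normalized counts in DD and 69.8, 66.2 and 159 in LL, a light effect of 4.65 (SE 0.42, adjusted p = 2.9e-06, limma). TrE0015W had no read in any DD library and 9.06, 10.3 and 17.4 normalized counts in LL, at least 12.2-fold more with 3 reads over the DD group as the limit. The peptide synthetase gene TrE0011C had 26, 34 and 15.7 in DD and 47.1, 86.8 and 173 in LL, a light effect of 1.81 (SE 0.52).

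In all 6 genes LL replicate 3 was the highest library. TrE0012W rose from 0.96, 5.87 and 3.69 to 39.9, 25.1 and 56 (light effect 2.99, SE 0.49), and TrE0013C from 6.74, 7.04 and 1.84 to 22.6, 36.5 and 87.3 (light effect 2.71, SE 0.60). TrE0016W was not called, since LL replicate 1 with 5.44 lay within the DD values of 6.74, 3.52 and 7.38, and LL replicates 2 and 3 had 19.4 and 46.8 (light effect 1.37, SE 0.67, adjusted p = 0.101, limma). Without LL replicate 3 TrE0011C was no longer called, at 1.34 with an adjusted p of 0.0508, and without LL replicate 1 TrE0016W was called at 2.08. With limma-voom on the recovered reads TrE0011C and TrE0013C were not called (adjusted p = 0.141 and 0.134).

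The cluster lies between genes that went the other way. The 10 genes numbered directly before it were all lower in LL, with a median light effect of -3.71. TrE0016W is followed by 6 consecutively numbered genes that were lower as well, with a median of -1.97. Position is known here only as the order of numbers in the gene identifiers. Across the genome 141 runs of at least 3 consecutive genes were lower in LL and 39 were higher, the longest with 11 and 6 genes. The 7 letters of the identifiers differed little, with 20.5% to 25.9% of the tested genes lower and 12.7% to 17.4% higher.

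Both genes listed for iron uptake outside the siderophore cluster were lower in LL. TrD0323C, annotated as an iron transporter, had 3332, 3301 and 2745 normalized counts in DD and 1412, 1156 and 1674 in LL, a light effect of -1.15 (SE 0.28, adjusted p = 0.00391, limma). fet3b (TrD0040C), the multicopper ferroxidase of reductive iron uptake, had 602, 536 and 435 in DD and 272, 259 and 189 in LL, a light effect of -1.13 (SE 0.23). Neither gene overlapped between the conditions, and both decreases were slightly larger, at -1.25, without DD replicate 3. Neither was called with limma's treat against 1.5-fold (adjusted p = 0.127 and 0.0847). In the wild-type fet3b was lower in LL as well, with a light effect of -1.96 (SE 0.23). The difference of its light effects between the strains was 0.83 and was not called (adjusted p = 0.225, limma).

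**Figure D4:**
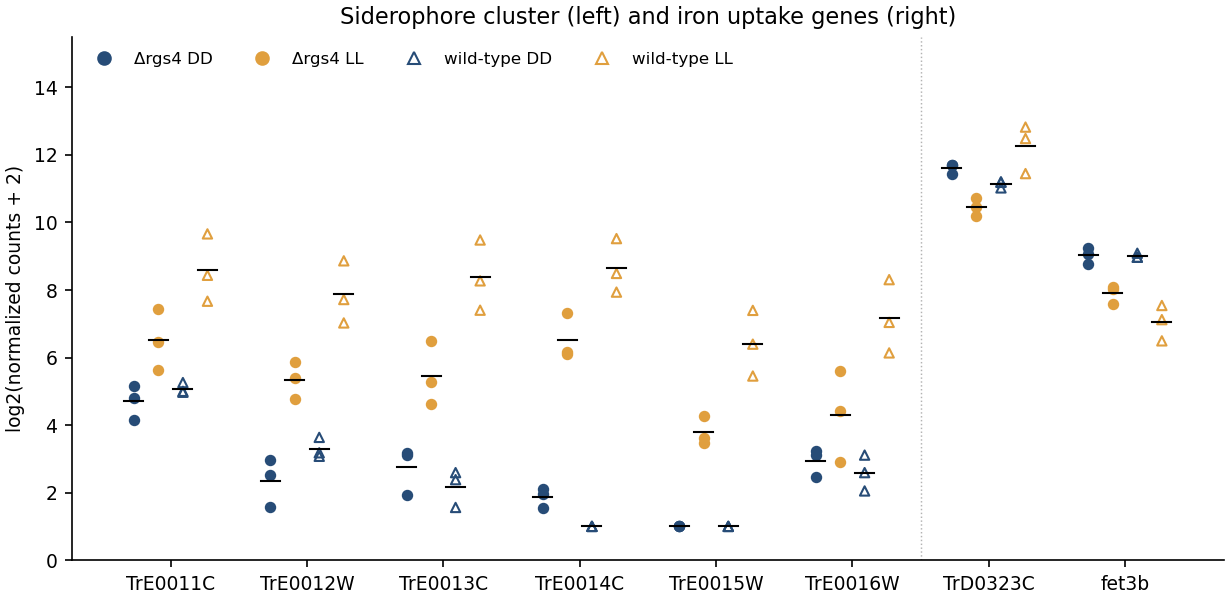
Transcript levels of the 6 siderophore cluster genes and of both iron uptake genes (horizontal axis) on a log2(normalized counts + 2) scale, with 1 symbol per library and a line at each group's mean. In LL all 6 cluster genes have a lower mean in Δrgs4 (filled orange circles) than in the wild-type (open orange triangles). The mean of TrD0323C falls in LL in Δrgs4, from 3126 to 1414 normalized counts. In the wild-type its mean rises from 2256 to 5259, with LL libraries between 2791 and 7253.

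Of the 10 genes of translation and RNA processing 2 were lower in LL and 8 were not called, with a median light effect of -0.35, a share near the 22.0% of all genes tested. An aspartyl-tRNA synthetase gene, TrC0019C, was the exception in size, with 25, 42.2 and 36 normalized counts in DD and no read in LL, at least 35.2-fold lower. The other lower gene was TrA2076W for the U6 snRNP protein Lsm3, at -0.96. rla1 (TrB1847W), for an acidic protein of the large ribosomal subunit, had 7865, 7655 and 7760.4 in DD and 6063, 6136 and 6483 in LL. Its decrease was small and regular, with a light effect of -0.32 (SE 0.06, adjusted p = 0.000874, limma), under the threshold for a call. The decreases of rps28 (TrC1311W, -0.56) and rps21 (TrB0594C, -0.39) also stayed under it with libraries that did not overlap.

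Of the 5 mitochondrial and secretion genes 2 were lower, with a median of -0.37. Succinate-CoA ligase (TrD1325C), an enzyme of the citric acid cycle, fell from 120.3, 103 and 113 to 48, 45.7 and 54.2 (light effect -1.16, SE 0.13), and the vacuolar sorting gene TrA0359W was lower at -0.73. The alamethicin synthase gene TrG0248C, a peptide synthetase outside the siderophore cluster, overlapped between DD, with 11202, 13792 and 24139.7, and LL, with 14037, 11151 and 17499. DD replicate 3 held its highest value. Of 6 genes that are mutated in the cellulase-overproducing strain RutC30 or in the mutant QM9123, 5 were lower in LL, led by TrC0885C (-2.78) and TrF0044C (-1.93), and TrD0796W at -0.53 was not called.

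The light response of Δrgs4 was then set beside that of QM6a. In the wild-type 1919 genes (21.6% of those tested) were lower in LL and 1361 (15.3%) were higher. Of the calls 1637 lower and 977 higher genes were shared, which is 81.2% of the Δrgs4 calls and 79.7% of the wild-type calls. Over all 8895 genes the light effects of both strains correlated at r = 0.96 with a slope of 0.938 of Δrgs4 on the wild-type, a description across genes. Without DD replicate 3 r was 0.952 and the slope 0.968. Only 2 genes were called in opposite directions. These are the iron transporter gene TrD0323C, with -1.15 in Δrgs4 and 1.11 in the wild-type, and TrC0674C of no annotation, with -0.61 and 0.72, named after its values were seen. The wild-type libraries of TrD0323C varied in light, with 7253, 2791 and 5734 normalized counts in LL against 2358, 2331 and 2080 in DD.

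The difference between the light effects of the strains was tested for each gene. It was lower in Δrgs4 for 45 genes (0.506% of those tested) and higher for 18 (0.202%), and at an unadjusted p under 0.05 there were 804 and 757. The number depended on single libraries. Leaving out any 1 of the 12 libraries other than DD replicate 3 of Δrgs4 gave between 7 and 28 lower and between 0 and 10 higher genes, and leaving out DD replicate 3 gave 104 and 89. With limma's treat against 1.5-fold no difference was called, and 47 and 37 genes had an unadjusted p under 0.05.

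Of these 63 genes, 23 are on the list of annotated genes, of which 17 had a lower light effect in Δrgs4 and 6 a higher one. The authors chose that list on differences between the strains in these same libraries, which favours its genes in this test. Counts over it, also those of its gene groups, are therefore not independent evidence for a difference between the strains. All 6 genes for ribosomal proteins on the list are among the 17. In light 4 of them rose in the wild-type and none was called in Δrgs4, with light effects from 0.34 to 0.84 in the wild-type and from -0.56 to -0.07 in Δrgs4. rla1 had 8195 ± 54.8 normalized counts in wild-type DD and 12612 ± 878 in wild-type LL, against 7760.0 ± 105 and 6227 ± 224 in Δrgs4 (SD, n = 3 each), a difference of the light effects of -0.94 (SE 0.09, adjusted p = 0.00247, limma). The differences of rps28, rps21 and rla2 (TrD0208W) were -1.22, -0.93 and -0.98. That of TrB0953C for ribosomal protein S10 was -0.76 and that of TrC1283C, for a potential mitochondrial ribosomal protein, -0.63. Those of rla1, rps28 and rps21 were called in 21 of 23 alternative analyses and that of TrB0953C in 20, whereas that of TrC1283C was called in 5 only.

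Lower light effects in Δrgs4 were also called for metabolic and transport genes. The cytochrome P450 gene TrD0325W fell in Δrgs4 from 474 ± 36.4 to 173 ± 19.5, against 310.5 ± 33.3 and 287 ± 30.7 in the wild-type (SD, n = 3 each), a difference of -1.33 (SE 0.17) that was called in 21 of 23 alternatives. The glutathione S-transferase gene TrB1934C had a difference of -1.62, succinate-CoA ligase TrD1325C of -0.95 and the mitochondrial import gene TrB0123W of -0.83, called in 10, 5 and 10 of 23 alternatives. In DD TrB1934C was higher in Δrgs4, with 233 ± 59.7 against 110 ± 10.0 in the wild-type. In LL it had 48.6 ± 9.19 against 72.4 ± 5.58 (SD, n = 3 each). For the iron transporter gene TrD0323C the difference was -2.27 (SE 0.39, adjusted p = 0.0378, limma), called in 11 of 23 alternatives.

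In the siderophore cluster the difference was called for TrE0014C alone, at -3.0 (SE 0.59, adjusted p = 0.0441, limma), and in 4 of 22 alternatives. In the wild-type the light effects of the 6 cluster genes had a median of 5.0, and the reads on the cluster were 2613, 1686 and 895 in the LL libraries. The differences of TrE0013C (-3.50) and TrE0016W (-3.21) were larger in size than that of TrE0014C but missed the threshold, with adjusted p-values of 0.0806 and 0.125 (limma). That of TrE0015W was -2.63 (adjusted p = 0.0772, limma). Without DD replicate 3 of Δrgs4 the difference of TrE0013C was called as well, at -3.9 (adjusted p = 0.0365, limma). Those of TrE0011C, TrE0012W, TrE0015W and TrE0016W were not.

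A higher light effect in Δrgs4 was called for 6 genes of the list. The Dip5 permease gene TrB1799C rose in Δrgs4 and was not called in the wild-type, with 1529.5 ± 393 in DD and 1538 ± 177 in LL (SD, n = 3 each), a difference of 1.42 (SE 0.28). The glucanase gene TrB0225W fell in the wild-type from 125 ± 31.9 to 16.8 ± 9.55 and was not called in Δrgs4, a difference of 2.51 (SE 0.51, adjusted p = 0.0452, limma). bgl3i rose more in Δrgs4 by 0.92, from a DD level of 487 ± 61.2 against 829 ± 84.2 in the wild-type. The secreted protein gene TrG0359C and the tyrosinase gene TrG0897W fell less, by 0.87 and 0.80. The carboxypeptidase gene TrB0248C fell in the wild-type (-1.12) and was not called in Δrgs4 (-0.27), a difference of 0.86. Its LL means were 551 in Δrgs4 and 545 in the wild-type, and its DD means 671 and 1189. None of these 6 differences was called in more than 9 of 23 alternatives.

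**Figure D5:**
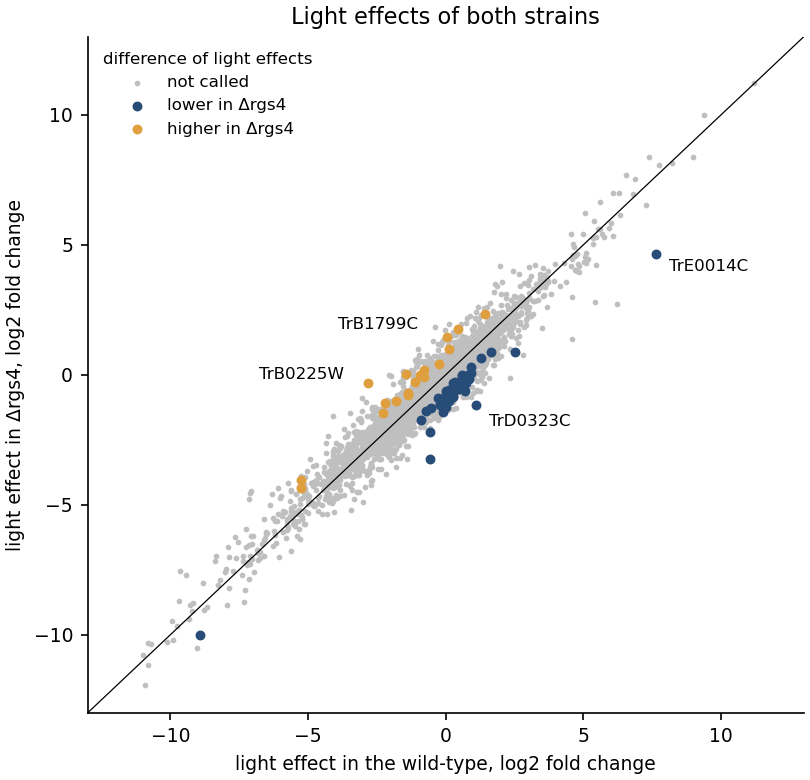
Light effect of each of the 8895 genes in Δrgs4 (vertical axis) against that in the wild-type (horizontal axis), both as log2 fold change LL against DD, with a line of equal effects. Genes whose difference was called lie off the line, 45 below it (blue) and 18 above it (orange), among them TrE0014C at -3.0, TrD0323C at -2.27 and TrB0225W at 2.51.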

How the data were processed

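RNA of mycelia was sequenced after ribosomal RNA depletion with a stranded kit. The submitters' processing notes name HISAT2 2.2.1 and DESeq2. The study's methods state counting per gene with featureCounts. The sources used here do not state the strand setting or the treatment of multiply aligned reads, and values of overlapping genes or close paralogs are uncertain. Deposited by the authors were values after a variance stabilizing transformation, on a log2-like scale, for 10879 genes. A deposited table of raw counts was not used, as neither labels nor methods pair its 12 columns with samples.

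The transformation was inverted with the lowest value, 6.74, standing for 0 reads, and the smallest step of each library gave whole reads. Counting limits cover counting error only. Over the 12 libraries reads on genes ranged from 11.25 to 15.84 M. Groups came from the sample labels, and their separate cultures from the study's methods. limma 3.58.1 in R 4.3.3 was fitted to log2(normalized counts + 2) of all 12 libraries with 4 group means and a trended variance, over genes that reached 10 reads in 3 or more libraries. The thresholds (|log2 fold change| > 0.58, adjusted p < 0.05) are those of the study's methods. Fold changes on this scale understate those of genes with few reads, so ratios of mean normalized counts or bounds are given beside some of them. The inversion and the light contrast of Δrgs4 were run on simulated data. There fewer genes changed than here, and by less than the largest changes here. The difference between the strains was not scored on simulated data.

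Named were rgs4, the 10 annotated genes with the largest called increase and decrease among those without overlap, the siderophore, iron uptake, ypr1 and ypr2 genes, annotated genes with a called difference between strains, 2 genes without annotation in each direction, and up to 4 examples per list or the largest changes in it. Some more list members are given by value, chosen after their values were seen. Members and lists were chosen with earlier results of these data known. All 175 protein identifiers of the study's annotation paired with RefSeq locus tags of another assembly (v2.0), which gave symbols only. Alternatives were other scalings, filters, pseudocounts, limma-voom, the deposited values, other fold thresholds, a replicate block, only the Δrgs4 libraries, and leaving out each library. Python 3.11.15 with pandas 2.3.3 and matplotlib 3.10.9 was used. Promoter sequences were not analysed here.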

Additional observations from a re-analysis of the deposited data

Results flagged for a closer look

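For 23 annotated genes the light effect of Δrgs4 differed from that of the wild-type in the test of the difference itself (limma, Benjamini-Hochberg adjusted p under 0.05). These values restate that test and are no further evidence for it. A lower light effect in Δrgs4 was found for the siderophore gene TrE0014C (-3.0), the iron transporter gene TrD0323C (-2.27), the glutathione S-transferase gene TrB1934C (-1.62) and the cytochrome P450 gene TrD0325W (-1.33). For the ribosomal protein genes rps28 (TrC1311W), rla2 (TrD0208W), rla1 (TrB1847W), rps21 (TrB0594C), TrB0953C and TrC1283C the differences were -1.22, -0.98, -0.94, -0.93, -0.76 and -0.63. The genes TrD0796W and TrC0611W, mutated in QM9123, had -1.02 and -0.91. Succinate-CoA ligase (TrD1325C) had -0.95, the hydroxyisobutyrate dehydrogenase gene TrA1757W -0.91, the import gene TrB0123W -0.83, mannitol-1-phosphate dehydrogenase (TrG0013W) -0.82 and the Zn2Cys6 regulator gene TrB1006C -0.68. A higher light effect in Δrgs4 was found for the glucanase gene TrB0225W (2.51), the Dip5 permease gene TrB1799C (1.42), bgl3i (TrA0299W, 0.92), the secreted protein gene TrG0359C (0.87), the carboxypeptidase gene TrB0248C (0.86) and the tyrosinase gene TrG0897W (0.80).

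Without DD replicate 3 of Δrgs4 all 23 differences were still called, and leaving out any other single library kept between 5 and 12 of them.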

How the results depend on the processing

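The light effect of Δrgs4 held under most alternatives. The counts of lower and higher genes moved by over 1.5 times only with the deposited values (1267 and 721) and limma's treat against 1.5-fold (1273 and 618), and for higher genes also with adjusted p alone (2488). For the wild-type the higher genes moved to 721, 657 and 2544 under the same 3 settings. Leaving out each library gave 1823 to 2011 lower and 1203 to 1293 higher genes in Δrgs4, and 1814 to 1967 and 1286 to 1398 in the wild-type. Upper-quartile factors shifted the median light effect of all genes by 0.07 and the share of higher calls from 39.3% to 45.5%.

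The difference between the strains depended far more on the setting. Against 45 lower and 18 higher genes, upper-quartile factors gave 29 and 5, total reads 24 and 1, no filter beyond 1 read 28 and 9, and limma-voom 30 and 10. The deposited values gave 22 lower genes, adjusted p alone 36 higher genes, and treat 0 and 0, with 47 and 37 genes at an unadjusted p under 0.05. Leaving out each library gave 7 to 104 lower and 0 to 89 higher genes, with the highest counts without DD replicate 3 of Δrgs4. The causes were not tested.

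The replicate number as a block gave 1941 lower and 1264 higher genes in Δrgs4. For the difference between the strains the block gave 0 and 0 (limma), with 734 and 697 genes at an unadjusted p under 0.05 and a smallest adjusted p of 0.0569. Same-numbered DD and LL libraries did not deviate together in every pair. The correlations of their deviations were -0.285, 0.252 and 0.081 in Δrgs4 and 0.15, -0.011 and 0.002 in the wild-type. The labels do not say that a number marks a shared day or batch. The numbers were therefore not taken as pairs.

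Of 1066 values of 45 named genes under the alternatives, adjusted p alone not among them, 1048 kept direction and call, 12 lost the call, 5 gained it and 1 changed sign, TrB0953C with 0.01 under upper-quartile factors, which was not called in either analysis. TrE0011C, TrE0013C and TrE0015W lost the call with the deposited values, as did TrA1757W and TrD1325C, and TrD0323C, TrD0040C, TrE0011C and TrA1757W lost it with treat. The deposited values compress genes of few reads. At this depth the siderophore genes had under 10 normalized counts in DD apart from TrE0011C, and their fold changes are correspondingly uncertain.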
